A study of Drosophila melanogaster with 5 samples.

Results

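A set of 6 genes was examined that are known from neuroblasts, the neural stem cells of the fly: dpn, klu, grh, mira, brat and insc. They were taken as a list of 6 among 13945 protein-coding genes on 6 chromosome arms, and every ATAC-seq peak that overlapped the gene body or the 5 kb to either side was assigned to them. This gave 105 of the 40142 peaks of the 5 lists. In ATAC-seq, the Tn5 transposase cuts accessible DNA, and peaks are called where fragments exceed the local background of the library.

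A neuroblast divides asymmetrically into a new neuroblast and a smaller daughter that goes on to form neurons or glia. Deadpan (Dpn), Klumpfuss (Klu) and Grainy head (Grh) are transcription factors that act in neuroblasts, Inscuteable (Insc) orients the division, and the adaptor Miranda (Mira) delivers the repressors Prospero (Pros) and Brain tumor (Brat) to the smaller daughter. In the adult midgut, intestinal stem cells and their progenitors renew the absorptive enterocytes (ECs) and the hormone-secreting enteroendocrine cells (EEs). Pros also marks EEs, and Tramtrack (Ttk) is a zinc-finger repressor.

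The study sorted 5 populations of midgut cells, each represented here by 1 library. Pros-depleted EEs carried prosV1-Gal4ts, UAS-GFP and UAS-pros-RNAi, and EEs carried prosV1-Gal4ts and UAS-GFP. Ttk-depleted ECs carried Myo1A-Gal4ts, UAS-GFP and UAS-ttk-RNAi together with pros-mCherry, and ECs carried Myo1A-Gal4ts and UAS-GFP. Progenitor cells carried esg-Gal4ts and UAS-GFP. In all 5 the transgenes were held off at 18 °C and induced at 29 °C in adults aged 5 to 7 days, and about 40000 cells from 100 to 150 pooled guts were sorted by GFP. The Ttk-depleted ECs were sorted as cells with weak GFP and with Pros-mCherry, so cells without Pros-mCherry were not in that library. The populations are defined by the activity of their Gal4 drivers. In such pooled cells, accessibility in more cells and more accessibility per cell cannot be told apart. The peak names carry the marks ProsIR-rep2, EE-rep2, ttk-RNAi-R-Pos, EC-rep1 and esg-5w, which the sources do not explain, so how each list relates to any further replicates is unknown.

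The lists held 8466 peaks in Pros-depleted EEs, 9048 in EEs, 3269 in Ttk-depleted ECs, 10048 in ECs and 9311 in progenitor cells. The fold enrichment and −log10 p that MACS gives each peak were converted into fragments at the summit. The median summit had 52 fragments in Pros-depleted EEs, 65 in EEs, 8 in Ttk-depleted ECs, 52 in ECs and 103 in progenitor cells. The list of Ttk-depleted ECs therefore stood apart, with a median peak width of 129 bp against 476 to 591 bp in the other lists. Fold enrichment was ranked within each list and is given as a percentile, with 100 for the strongest peak, because its size depends on the depth of a library. Of 9 marker genes (the EE genes AstC, pros, Rab3 and Tk, the EC genes mex1, Myo31DF and nub, and the progenitor genes Dl and esg), a peak within 3 kb of a start site was found for 7 in Pros-depleted EEs, 8 in EEs, 5 in Ttk-depleted ECs, 5 in ECs and 6 in progenitor cells. Among the progenitor markers, esg had a peak in all 5 lists and Dl in none. Of the EE markers, Tk had a peak in EEs alone and AstC in both EE lists alone, while Rab3 and pros had a peak in all 5. For pros there were 4 peaks in Pros-depleted EEs and 3 in EEs, against 1 in each other list. Of the EC markers, Myo31DF had none in ECs, mex1 had none in Ttk-depleted ECs, and nub had a peak in all 5. AstC thus marked both EE lists, while no EC or progenitor marker had peaks in its own population alone. Since each population had 1 library, no differences were tested, and the values describe these libraries.

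The 6 genes held 19 peaks in Pros-depleted EEs, 17 in EEs, 16 in Ttk-depleted ECs, 28 in ECs and 25 in progenitor cells. In peaks per 10 kb this was 0.964 against 0.632 over the whole arms in Pros-depleted EEs, 0.863 against 0.676 in EEs, 0.812 against 0.244 in Ttk-depleted ECs, 1.42 against 0.751 in ECs and 1.27 against 0.695 in progenitor cells. The windows are placed on genes and the arms include the sequence between genes, so the densities are not like for like. Whether windows of other genes are as dense was not tested. All 6 genes had a peak in EEs, Ttk-depleted ECs, ECs and progenitor cells, while dpn and mira had none in Pros-depleted EEs. Over all protein-coding genes, a peak in the same window was found for 74.4% in Pros-depleted EEs, 76.5% in EEs, 31.9% in Ttk-depleted ECs, 80.3% in ECs and 76.5% in progenitor cells, and for 29.5% in all 5. Of the 6 genes, klu, insc, brat and grh had a peak in all 5. These shares were not matched for length, and the windows of the 6 genes ran from 13.3 kb at mira to 55.9 kb at brat.

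A peak that covered a start site (TSS) of the gene itself was found for 3 of the 6 genes in Pros-depleted EEs, 3 in EEs, 3 in Ttk-depleted ECs, 4 in ECs and 5 in progenitor cells. The share over all protein-coding genes was 35.8% in Pros-depleted EEs, 38.4% in EEs, 4.8% in Ttk-depleted ECs, 29.2% in ECs and 42% in progenitor cells. The median percentile of the peaks at the 6 genes was 44.9 in Pros-depleted EEs, 62.0 in EEs, 57.3 in Ttk-depleted ECs, 54.0 in ECs and 44.5 in progenitor cells, where a list's own median is about 50. Their ranks spanned nearly the whole of each list, from 1.24 to 99.0 in Ttk-depleted ECs and from 1.51 to 99.8 in progenitor cells.

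dpn encodes a bHLH repressor of the Hes family that keeps neuroblasts self-renewing. The gene (FBgn0010109) lies on the minus strand of 2R between 8228971 and 8232330 in BDGP6, with 1 annotated TSS at 8232330. A peak at this TSS was present in Ttk-depleted ECs, ECs and progenitor cells, and none was called in Pros-depleted EEs or EEs. In Ttk-depleted ECs the peak ran from 8232291 to 8232545 and covered the TSS, with a fold enrichment of 5.42, the percentile 55.2 and 10 fragments over a background of 1.03. In ECs it ran from 8232372 to 8232582, with a fold enrichment of 2.82, the percentile 54.0 and 49 fragments over 16.7. It lay just upstream of the TSS without covering it. In progenitor cells it ran from 8232239 to 8232610 and covered the TSS, with a fold enrichment of 3.94, the percentile 35.9 and 52 fragments over 12.4.

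The 3 summits at the dpn TSS lay within 66 bp of each other, 133 to 199 bp upstream of the start. These peaks were of middle or low rank in their lists. The calls differed in strength: −log10 q was 4.46 in Ttk-depleted ECs, 8.57 in ECs and 15.2 in progenitor cells. The peak of Ttk-depleted ECs was lost when a −log10 q of at least 5 was required, and that of ECs when at least 10 was required. When every list was cut to its 3269 strongest peaks by fold enrichment, the length of the list of Ttk-depleted ECs, the peaks of ECs and progenitor cells were lost and that of Ttk-depleted ECs, whose list is not shortened by this, stayed. For the lists without a peak here, the weakest summit anywhere had 17 fragments in Pros-depleted EEs and 20 in EEs, and the lowest fold enrichment was 1.57 in Pros-depleted EEs and 1.43 in EEs. A site with fewer fragments than this was not called at their depth.

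The other peaks in the dpn window lay nearest to a TSS of the neighbour pnut. This gene encodes a septin and is transcribed away from dpn, with TSSs 4941 and 5523 bp upstream of the dpn start. In EEs a strong peak from 8237083 to 8238141, at the percentile 75.5 and with 179 fragments, covered the pnut TSSs, and it was the only peak of EEs in the window. In Ttk-depleted ECs a peak from 8236744 to 8236953, at the percentile 22.9, had its summit 519 bp from a pnut TSS. It covered no TSS, so it is proximal to pnut and not assigned to it. The pnut peak was not particular to EEs. The other 4 lists held it too, beginning 208 to 299 bp outside the window, with summits at 8237813 or 8237815 and percentiles of 53.6 in Pros-depleted EEs, 72.7 in Ttk-depleted ECs, 69.9 in ECs and 55.8 in progenitor cells. At its own TSS, dpn thus had no peak in either EE list.

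**Figure D1:**
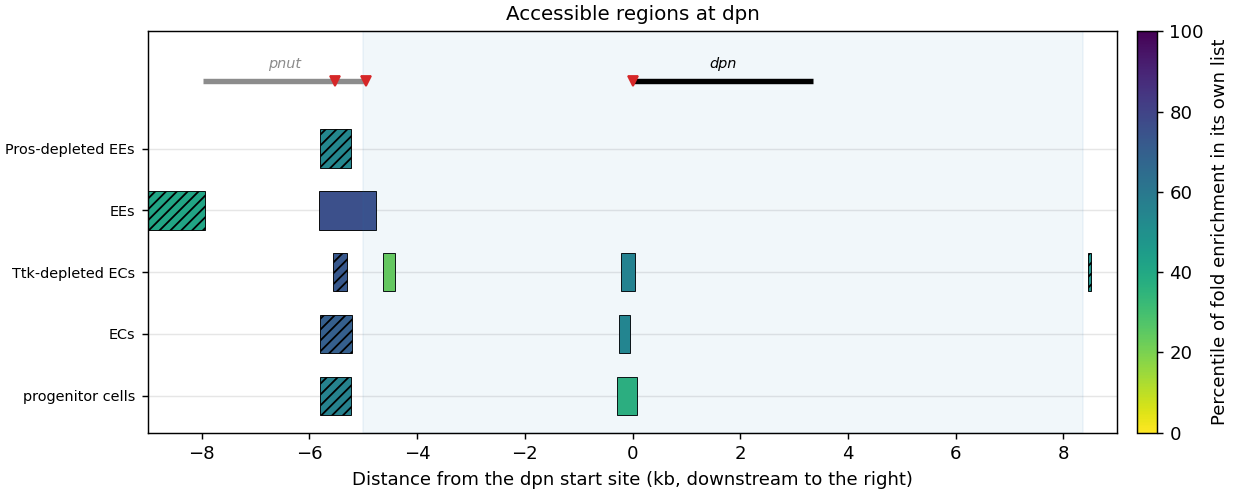
Peaks at dpn and its neighbour pnut by distance from the dpn TSS in kb, with 1 row per library, the colour giving the percentile of fold enrichment within the list. Red triangles are TSSs, the shaded area is the window of the gene with 5 kb to either side, and hatched bars are peaks just outside it. Bars stand at the dpn TSS in Ttk-depleted ECs, ECs and progenitor cells, and at the pnut TSSs in all 5 rows.

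grh encodes a CP2-family transcription factor of late neuroblasts that also opens chromatin in epithelia. The gene (FBgn0259211) lies on the plus strand of 2R between 17801132 and 17842820 and has 5 annotated TSSs. None of these was covered by a peak in any of the 5 lists. The strongest peak inside the gene was intronic, about 1 kb upstream of the last TSS at 17823565, and was present in all 5 lists. It stood at the percentile 58.9 with 37 fragments in Pros-depleted EEs, 81.6 with 65 in EEs, 99.0 with 14 in Ttk-depleted ECs, 98.9 with 164 in ECs and 99.8 with 287 in progenitor cells. In progenitor cells it held rank 20 of 9311, with a fold enrichment of 17.9. The summits of the 5 lists lay within 164 bp. The element thus ranked near the top in progenitor cells and in ECs with and without Ttk, and lower in both EE lists.

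Of the remaining peaks of the grh window, 1 lay in an exon of grh and was called in ECs alone, at the percentile 39.5 with 37 fragments. The others lay at neighbours. A peak in an intron of Dhit, 4592 to 4842 bp upstream of the first grh TSS, was present in all 5 lists at percentiles of 82.5 in Pros-depleted EEs, 93.2 in EEs, 59.4 in Ttk-depleted ECs, 97.1 in ECs and 91.2 in progenitor cells. At the other end, a peak at the TSS of olf186-M stood at 27.4 in Pros-depleted EEs, 32.7 in Ttk-depleted ECs, 95.4 in ECs and 74.1 in progenitor cells, with none in EEs. EEs had a separate peak in an exon of olf186-M, at 19.4 with 29 fragments and with its summit 1077 bp from that TSS. A peak over the TSS of Orai, a calcium channel gene, was called in Pros-depleted EEs alone, at 31.0.

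**Figure D2:**
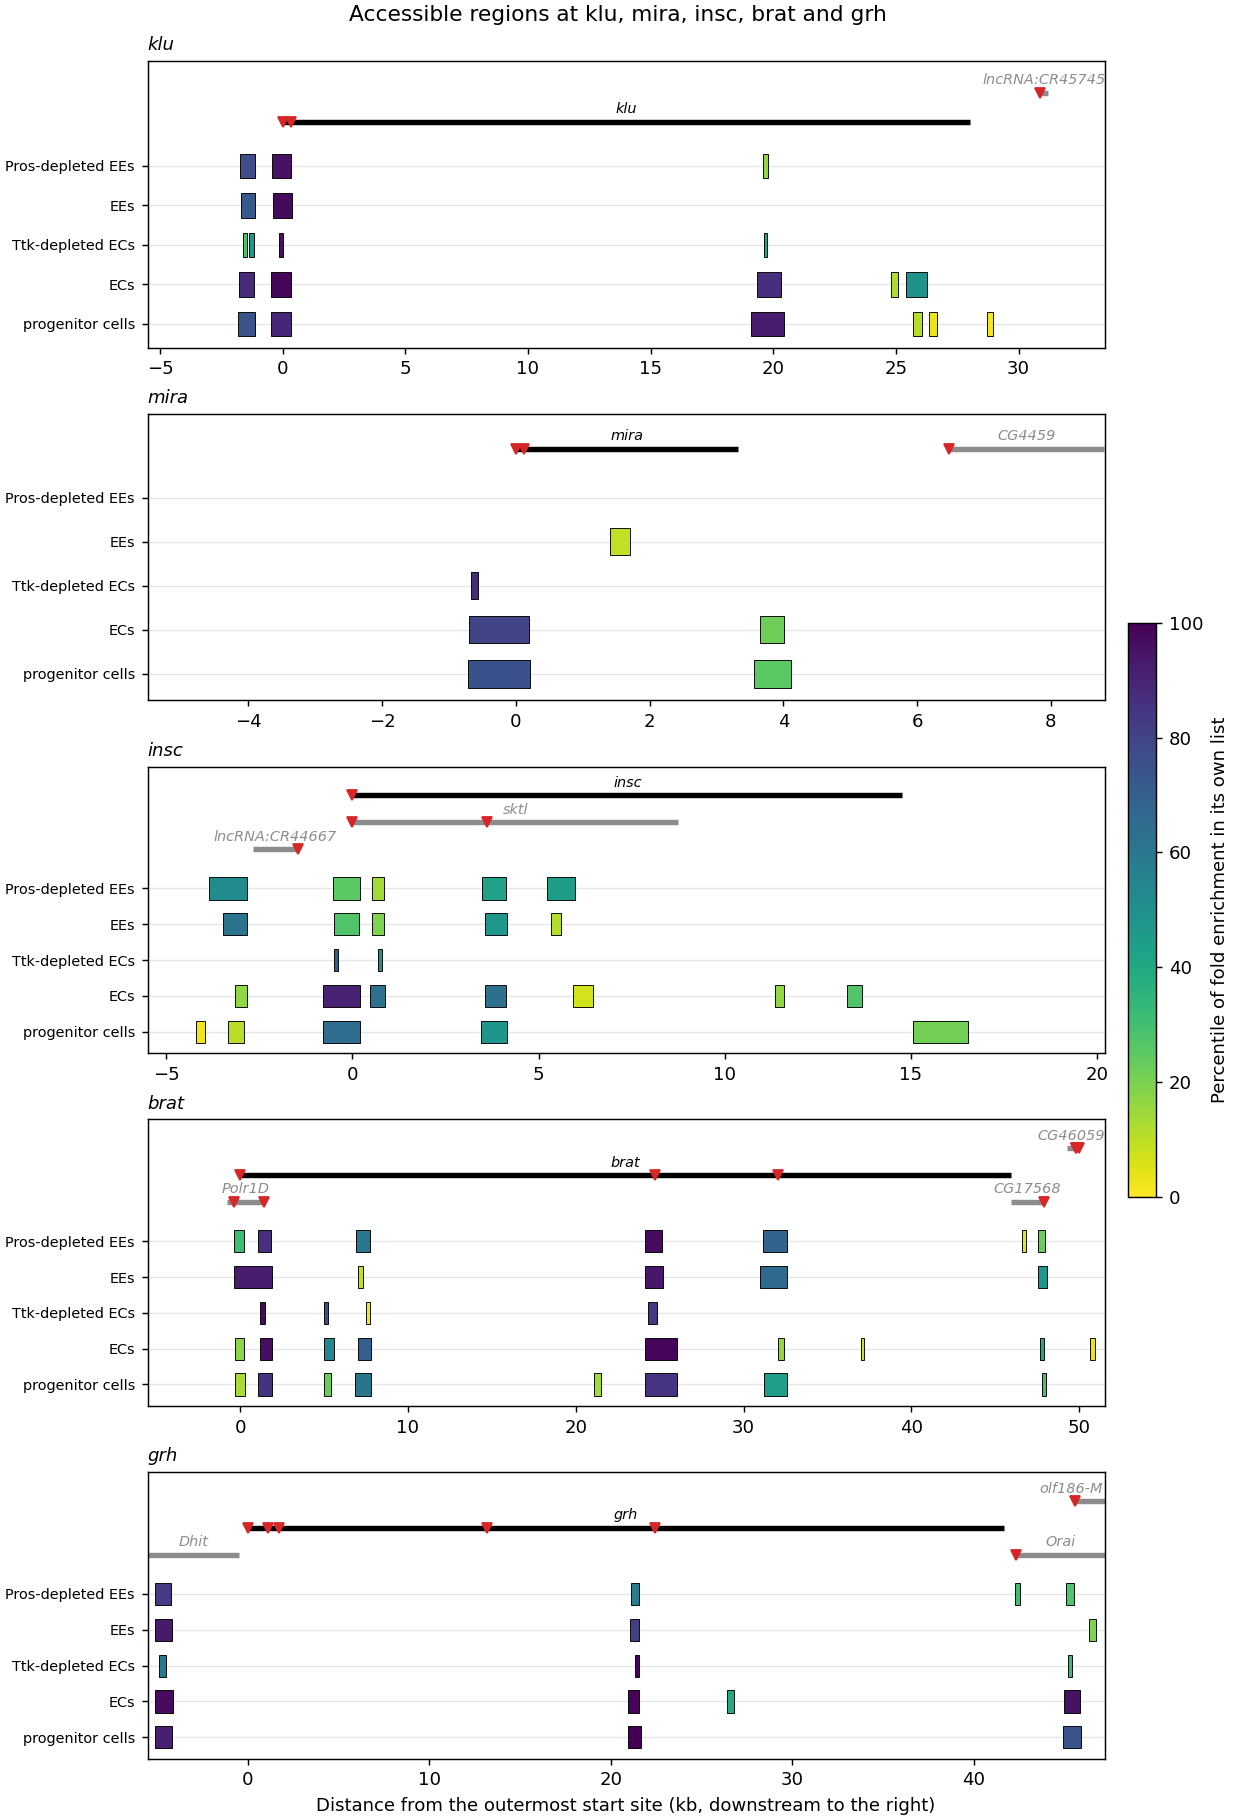
Peaks at klu, mira, insc, brat and grh by distance from the outermost TSS of each gene in kb, with 1 row per library, the colour giving the percentile of fold enrichment within the list. Black lines are the genes, grey lines the genes whose TSS lies nearest to a peak, and red triangles are TSSs. The outer TSS of klu and the inner TSS of brat have a bar in all 5 rows, and the mira panel has no bar in Pros-depleted EEs.

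klu encodes a zinc-finger transcription factor that acts in neuroblasts and, in the gut, in enteroblasts. The gene (FBgn0013469) lies on the minus strand of 3L between 10981171 and 11009188, with TSSs at 11008833 and 11009188. The peak over its outer TSS, at 11009188, was among the strong peaks of all 5 lists. It stood at the percentile 95.5 in Pros-depleted EEs, 97.3 in EEs, 95.9 in Ttk-depleted ECs, 98.7 in ECs and 89.2 in progenitor cells. In EEs alone it also covered the inner TSS. The second peak that all 5 shared lay 1204 to 1554 bp upstream and stood at 77.3 in Pros-depleted EEs, 72.3 in EEs, 46.8 in Ttk-depleted ECs, 88.3 in ECs and 74.4 in progenitor cells. Both regions thus had a peak in every list.

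An intronic element of klu, 19672 to 19683 bp downstream of the outer TSS, differed between them. It stood at the percentile 16.2 with 22 fragments in Pros-depleted EEs, while EEs had no peak there. In Ttk-depleted ECs it stood at 39.0 with 6 fragments, against 86.6 with 83 fragments in ECs. In progenitor cells it stood at 92.0 with 234 fragments. Its −log10 q in Pros-depleted EEs was 3.59, and that in Ttk-depleted ECs 3.36. The 4 summits fell within 12 bases. Weak peaks near the 3′ end of the gene were called in ECs and progenitor cells only, at percentiles of 48.9 or less.

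The reference sequence of this intronic element is shown because its summits coincided in 4 lists, and the 200 bases upstream of the outer TSS because the peak there was in all 5. Both are written 5′ to 3′ on the strand of klu and hold no UTR. The element is chr3L:10989416-10989616, with capitals for the bases between the outermost summits, and the upstream stretch is chr3L:11009189-11009388, with capitals for a match to CACGTG, a form of the site that Dpn and the Hairy/E(spl) repressors bind.
klu intron: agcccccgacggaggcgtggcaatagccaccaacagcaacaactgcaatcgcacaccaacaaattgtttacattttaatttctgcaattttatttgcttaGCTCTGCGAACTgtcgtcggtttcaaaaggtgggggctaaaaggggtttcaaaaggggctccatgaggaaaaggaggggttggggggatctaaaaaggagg
klu upstream: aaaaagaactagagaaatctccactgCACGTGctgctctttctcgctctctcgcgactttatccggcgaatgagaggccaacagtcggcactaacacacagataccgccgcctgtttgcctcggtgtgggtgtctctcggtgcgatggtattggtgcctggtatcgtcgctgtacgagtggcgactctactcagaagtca
Among 13945 protein-coding genes, 2.22% had CACGTG on either strand in the same 200 bases, so the match is a description and not a site. None of the 5 summit windows at the outer klu TSS held CACGTG, and 2 held CACGCG, another form of this site. Over the lists, 7.06% to 8.99% of all summit windows held CACGCG. A set of 7 motifs was searched on both strands: AACCGGTT for Grh, CACGTG and the form CACGCG for Dpn and the Hairy/E(spl) repressors, GTGGGAA for Su(H), CAGCTG for proneural proteins, AGGATAA for Ttk and GATAAG for GATA factors. None was found in the 4 summit windows of the intronic element.

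mira encodes the adaptor that carries Pros and Brat to the basal cortex of the dividing neuroblast. The gene (FBgn0021776) lies on the minus strand of 3R between 19931799 and 19935120, inside an intron of Hs6st, with TSSs at 19934998 and 19935120. In Pros-depleted EEs the window of mira held no peak, and in EEs it held only a weak peak in an exon, at 9.71 with 24 fragments. Ttk-depleted ECs had a peak of 102 bp with 12 fragments, at the percentile 87.6, whose summit lay 621 bp upstream of the outer TSS. A peak over the TSSs was present in ECs, at the percentile 79.9 with 101 fragments and a fold enrichment of 4.43, and in progenitor cells, at 75.1 with 198 fragments and a fold enrichment of 7.59. The summits lay 8 bp upstream of the outer TSS in ECs and 10 bp in progenitor cells, and both intervals contained that of Ttk-depleted ECs. The TSS of mira was therefore covered in ECs and progenitor cells and in neither EE list. Over all protein-coding genes, 2.27% had a peak over an own TSS in ECs and progenitor cells and none in EEs, and mira was the only one of the 6 genes to have this.

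The 2 places at which the mira summits fell are shown because the summit of Ttk-depleted ECs lay apart from those of ECs and progenitor cells. Both are on the strand of mira, 5′ to 3′, and lie in the Hs6st intron outside any UTR. The first, chr3R:19935121-19935320, ends at the base before the outer TSS, with capitals between the summits of ECs and progenitor cells. The second, chr3R:19935641-19935841, is centred on the summit of Ttk-depleted ECs, which is in capitals.
mira upstream of the TSS: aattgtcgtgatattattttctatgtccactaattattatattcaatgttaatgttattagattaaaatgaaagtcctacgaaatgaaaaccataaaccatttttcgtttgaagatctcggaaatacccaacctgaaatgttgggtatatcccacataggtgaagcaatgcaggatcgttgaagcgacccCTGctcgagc
mira further upstream: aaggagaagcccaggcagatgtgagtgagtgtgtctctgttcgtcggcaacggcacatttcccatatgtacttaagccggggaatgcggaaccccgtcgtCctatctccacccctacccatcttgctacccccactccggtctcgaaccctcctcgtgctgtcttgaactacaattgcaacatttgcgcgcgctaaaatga
GC was 35.5% of the first stretch and 54.2% of the second. Neither stretch held any of the 7 motifs. The summit windows of ECs and progenitor cells reach past the TSS, and CAGCTG was in 2 of the 3 summit windows of this region. Over the lists, 14.9% of summit windows in ECs and 14.7% in progenitor cells held it. Another place, 3701 to 3714 bp downstream of the outer TSS, had weak peaks in ECs at the percentile 22.3 and in progenitor cells at 25.6.

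brat encodes an NHL-domain protein that represses translation and acts as a tumour suppressor in the neuroblast lineage. The gene (FBgn0010300) lies on the plus strand of 2L between 19133816 and 19179758, with TSSs at 19133816, 19158540 and 19165867. The peak over the inner TSS at 19158540 was strong in all 5 lists, at the percentile 97.1 with 203 fragments in Pros-depleted EEs, 93.9 with 241 in EEs, 84.2 with 14 in Ttk-depleted ECs, 98.6 with 330 in ECs and 85.1 with 678 in progenitor cells. Its summits lay in an exon of the antisense gene lncRNA:CR44977. The peak over or near the TSS at 19165867 stood at 68.9 in Pros-depleted EEs, 66.1 in EEs, 16.1 in ECs and 44.5 in progenitor cells, and none was called in Ttk-depleted ECs.

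At the outermost TSS of brat, the neighbour Polr1D, a subunit of RNA polymerases I and III, held the strong summit. This peak stood at 86.4 in Pros-depleted EEs, 92.2 in EEs, 97.6 in Ttk-depleted ECs, 96.4 in ECs and 85.3 in progenitor cells, with its summit 48 to 126 bp from a Polr1D TSS. A separate peak over the brat TSS at 19133816 was weaker, at 31.4 in Pros-depleted EEs, 17.0 in ECs and 13.2 in progenitor cells. In EEs a peak of 2228 bp covered both genes.

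In an intron of brat, an element stood at the percentile 60.9 with 60 fragments in Pros-depleted EEs against 9.71 with 24 fragments in EEs. It stood at 70.1 with 82 fragments in ECs and at 61.5 with 198 fragments in progenitor cells. In Ttk-depleted ECs a peak at 1.24 with 5 fragments lay inside the same merged region. A second intronic element stood at 76.4 with 14 fragments in Ttk-depleted ECs, 54.0 with 107 in ECs and 23.0 with 207 in progenitor cells, and was not called in either EE list. The first of these elements is shown because its rank set Pros-depleted EEs and EEs apart. The stretch chr2L:19140892-19141092 is centred on the summit of Pros-depleted EEs, with a match to CAGCTG, a site of proneural bHLH proteins, in capitals.
brat intron: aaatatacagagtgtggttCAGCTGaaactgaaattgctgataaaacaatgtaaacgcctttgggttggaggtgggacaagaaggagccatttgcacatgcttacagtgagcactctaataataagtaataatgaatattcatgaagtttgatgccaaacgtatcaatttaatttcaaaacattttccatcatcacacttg
In Pros-depleted EEs, 12.9% of all summit windows of this length held CAGCTG on either strand.

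insc encodes the protein that links the apical Par complex to Pins and turns the spindle of the dividing neuroblast. The gene (FBgn0011674) lies on the minus strand of 2R between 20821262 and 20836028, and shares its TSS at 20836028 with sktl, a phosphatidylinositol phosphate kinase gene. A peak at this TSS cannot be assigned to either gene alone. It was present in all 5 lists, at the percentile 25.03 with 72 fragments in Pros-depleted EEs, 27.7 with 62 in EEs, 69.9 with 12 in Ttk-depleted ECs, 90.3 with 214 in ECs and 64.5 with 379 in progenitor cells. The summits lay within 49 bp, 404 to 453 bp upstream. In Ttk-depleted ECs the peak was 89 bp wide and did not reach the TSS. The rank was thus lower in both EE lists than in the other 3. An intronic peak 711 to 781 bp downstream of the TSS was likewise low in both EE lists, at 14.1 in Pros-depleted EEs and 19.3 in EEs, against 48.5 in Ttk-depleted ECs and 62.2 in ECs, and was not called in progenitor cells.

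An upstream region of insc ran the other way, and another belonged to sktl. This upstream region, 2940 to 3335 bp from the TSS, stood at 52.2 in Pros-depleted EEs and 62.0 in EEs, against 16.7 in ECs and 10.2 in progenitor cells, and was not called in Ttk-depleted ECs. A peak over the inner TSS of sktl stood at 42.5 in Pros-depleted EEs, 47.1 in EEs, 64.0 in ECs and 47.3 in progenitor cells. An intronic peak at 44.9 in Pros-depleted EEs fell in the same merged region as peaks at 11.4 in EEs and 6.94 in ECs. Peaks in the exons of insc were found in ECs alone, at 27.6 and 16.6.

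Touching or overlapping peaks at the 6 genes were merged into 38 regions. A peak in all 5 lists was found in 8 of them: the TSS and upstream regions of klu, the shared TSS of insc, the region of Polr1D and the outer TSS of brat, the inner TSS of brat and its intronic element, the intronic element of grh and the region in Dhit. The region of Polr1D and brat was joined by the wide peak of EEs, and its peak in Ttk-depleted ECs covered Polr1D and not the brat TSS. Likewise, the peak of Ttk-depleted ECs at the intronic element of brat did not overlap that of EEs. A peak in ECs, EEs and progenitor cells was found in 12 of the 35 regions with a peak in any of these 3, or 34.3%, against 36.3% of the merged regions over the whole arms, so the sharing of these regions was near the background. Another 17 regions had a peak in a single list: 2 in Pros-depleted EEs, 3 in EEs, 1 in Ttk-depleted ECs, 6 in ECs and 5 in progenitor cells. The shares of all merged regions over the arms with a peak in all 5 lists or in a single list were not computed. These counts are therefore a description and cannot be set against a background. Of the 3 in EEs, 1 is the pnut region, which counts as such only because of the window's edge. Without the list of Ttk-depleted ECs, which was left out after its depth was seen, 12 of 37 regions had a peak in every list and 16 in a single list.

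**Figure D3:**
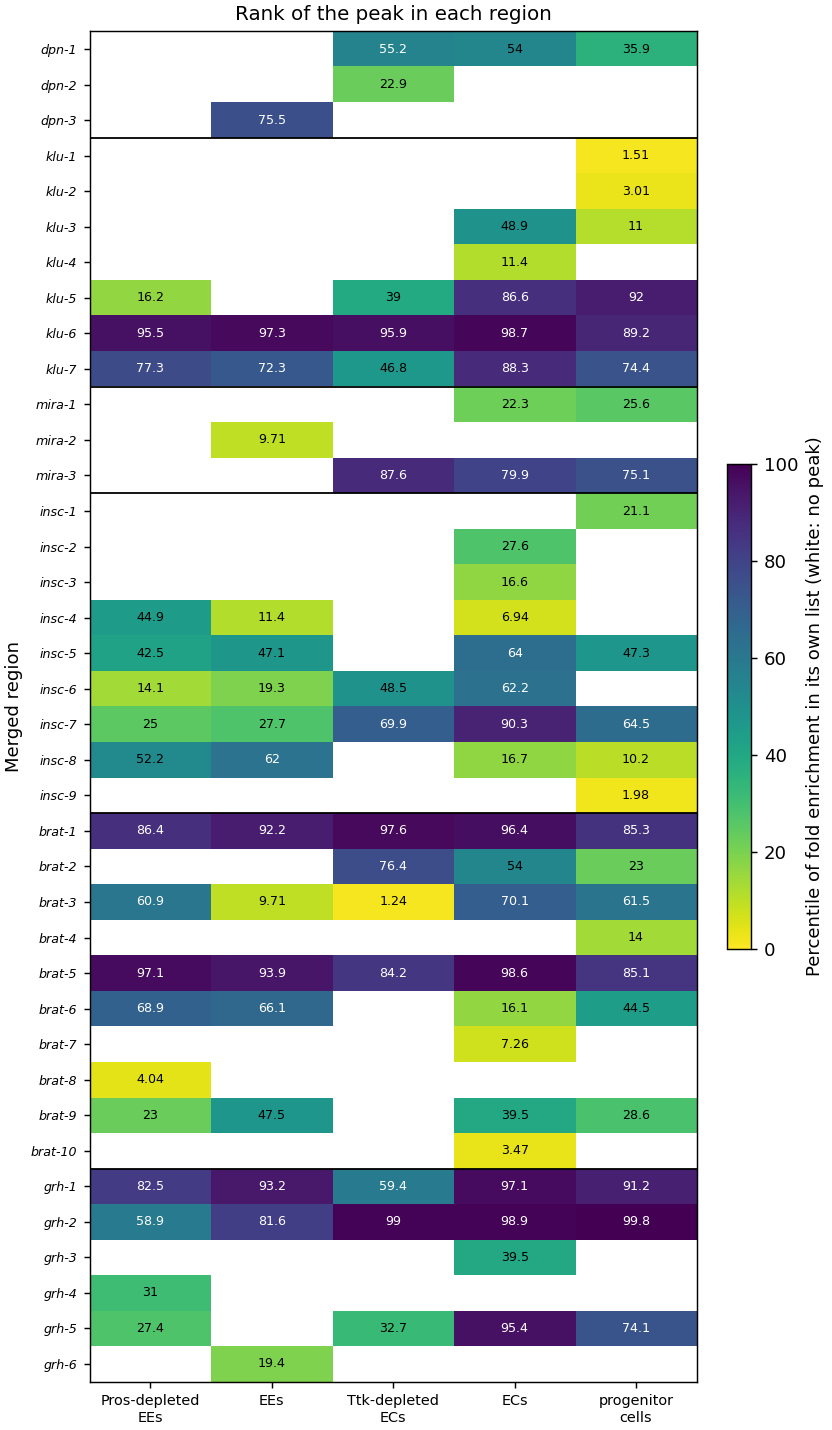
Percentile of fold enrichment of the strongest peak in each of the 38 merged regions (rows, numbered along the chromosome within each gene) in each library (columns), with white for no peak. The rows filled from side to side are the 8 regions with a peak in all 5 lists, and the dpn TSS is the row dpn-1.

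Of the peaks at the 6 genes in Pros-depleted EEs, 15 of 19 overlapped a peak of EEs, or 78.9% (95% Wilson interval 56.7 to 91.5, counting error only), against 81.9% over all peaks of the list. In the other direction it was 15 of 17, or 88.2% (65.7 to 96.7), against 76.2%. The 4 regions with a peak in Pros-depleted EEs and none in EEs were the klu intronic element, a weak region at the end of brat at the percentile 4.04, and the regions at Orai and olf186-M. Progenitor cells had a peak in 2 of these 4, at klu and at olf186-M. No region at dpn or mira was among them. Peaks of the same library at the same genes are not replicates, so the intervals make no test of a difference from the list.

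Of the peaks in Ttk-depleted ECs, 15 of 16 overlapped a peak of ECs, or 93.8% (71.7 to 98.9), against 82% over all peaks of the list. The exception was the weak peak near pnut in the dpn window. Of the peaks of ECs, 14 of 28 overlapped a peak of Ttk-depleted ECs, or 50% (32.6 to 67.4), against 23% over the list. Here too the peaks are not replicates, and the intervals make no test. The depth of the Ttk-depleted library moves with every region it lacks, and its part in these shares was not tested. Its peaks overlapped a peak of EEs in 9 of 16 cases and a peak of progenitor cells in 14 of 16. The shares over all peaks of the list were not computed for EEs and progenitor cells, so these counts cannot be set against a background.

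**Figure D4:**
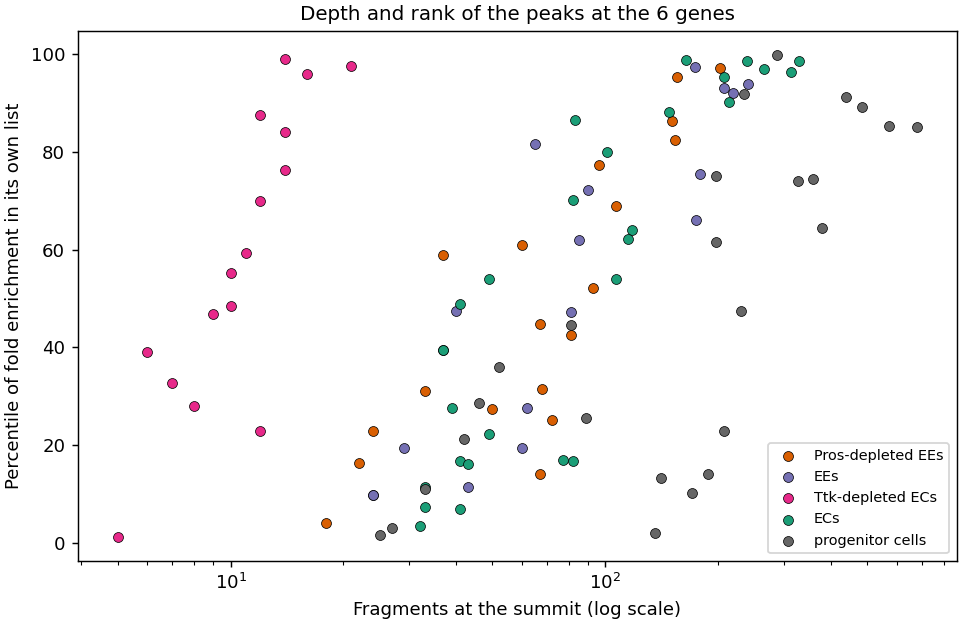
Fragments at the summit (log scale) against the percentile of fold enrichment for the 105 peaks at the 6 genes, coloured by library. The 16 peaks of Ttk-depleted ECs lie between 5 and 21 fragments, while their percentiles reach from 1.24 to 99.0. The peaks of the other lists lie at 18 fragments or more.

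Other genes of the neuroblast were followed in 2 lists. Of 15 genes of asymmetric division (baz, par-6, aPKC, pins, Galphai, loco, mud, l(2)gl, dlg1, scrib, numb, pon, stau, aurA and pros), 13 had a peak over an own TSS in Pros-depleted EEs, 12 in EEs, 2 in Ttk-depleted ECs, 11 in ECs and 15 in progenitor cells. Over all protein-coding genes this was 35.8% in Pros-depleted EEs, 38.4% in EEs, 4.8% in Ttk-depleted ECs, 29.2% in ECs and 42% in progenitor cells. The genes with such a peak in all 5 lists were dlg1, a scaffold of the cortex, and numb, the Notch inhibitor that is inherited by 1 daughter. numb stood at the percentile 91.0 in Pros-depleted EEs, 94.9 in EEs, 94.5 in Ttk-depleted ECs, 99.9 in ECs and 95.3 in progenitor cells. dlg1 stood at 76.4 in Pros-depleted EEs, 89.0 in EEs, 52.3 in Ttk-depleted ECs, 95.7 in ECs and 99.4 in progenitor cells. Mira and Insc act with these proteins, and of their genes mira had no TSS peak in either EE list. Among the 15 genes, this was also so for pon. In Ttk-depleted ECs neither mira nor insc had a peak over its TSS.

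Of 15 transcription factor and RNA-binding protein genes of neuroblasts (ase, wor, erm, btd, cas, hb, svp, Kr, nerfin-1, chinmo, E(spl)mgamma-HLH, Imp, Syp, nanos and pum), 6 had a peak over an own TSS in Pros-depleted EEs, 7 in EEs, 2 in Ttk-depleted ECs, 5 in ECs and 6 in progenitor cells. Against the shares over all protein-coding genes just given, the counts in Pros-depleted EEs, EEs, ECs and progenitor cells were near the background. There were 7 with none in any list: ase, wor, erm, cas, hb, E(spl)mgamma-HLH and nanos. The share of all protein-coding genes with none in any list was not computed, so this count cannot be set against a background. ase, a proneural factor of neuroblasts, and cas and hb, which time the neuroblast lineage, had no peak anywhere in their windows in Pros-depleted EEs, EEs or progenitor cells. Each had a peak in its window in ECs, and ase and cas had one in Ttk-depleted ECs too. pum, a translational repressor, was the gene with a TSS peak in all 5 lists, at 99.5 in Pros-depleted EEs, 99.1 in EEs, 89.4 in Ttk-depleted ECs, 92.0 in ECs and 89.8 in progenitor cells. nerfin-1, named after its values were seen, had a peak in its window in Ttk-depleted ECs alone. A peak covered its TSS there, at 25.02.

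The genes most like each member were those with the smallest mean absolute difference in the highest percentile of their windows over the 5 lists, with 0 for no peak. For grh this was nub with a difference of 0.871, then Ref2 with 1.64 and Pdp1 with 2.58. For brat it was Psc with 1.52, ahead of ph-d and ph-p with 1.75 each. For klu it was Oatp74D with 1.07, and for insc CG17359, Nprl3 and upSET with 2.91 each, whose windows share their peaks. dpn was nearest to CG17364 with 2.67, but its value in EEs was the pnut peak. The value of grh was likewise the peak in Dhit in Pros-depleted EEs and EEs, and that of brat the Polr1D peak in Ttk-depleted ECs and progenitor cells. mira was nearest to mthl8 with 8.09, so no gene had its pattern closely. These values describe 5 libraries that share peaks with each other.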

How the data were processed

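ATAC-seq libraries of 5 sorted midgut cell populations were examined through 1 peak list each. Per the labels and the methods, the authors trimmed reads with Cutadapt, mapped them to BDGP6 with bowtie2 (version 2.2.4 in the processing notes), removed duplicates and blacklisted regions, and called peaks per sample with MACS3, whose settings are not given in the sources used here. The deposited lists give intervals, summits, the fold enrichment over the local background (a ratio computed by the authors) and, per peak, the −log10 of its p and of its q, also deposited by the authors. All peaks had a q under 0.05. The total depth is not given in the sources used here.

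Peaks on X, 2L, 2R, 3L, 3R or 4 entered, leaving out 25 to 108 per list. Gene models were those of Ensembl release 115 for BDGP6, and sequences from the RefSeq copy of the same assembly. A peak was assigned to a TSS its interval covered, otherwise called proximal where its summit lay within 1000 bp of the nearest TSS, and distal beyond that. Regions were merged and lists compared by an overlap of at least 1 bp. The number of fragments at each summit was solved from fold and p under the Poisson model of MACS (pseudocount 1), with a solution for 100% of peaks (a unique one for 97.2% in Ttk-depleted ECs and at least 99.99% in the others). The scripts were tested on made-up inputs with known answers. Motifs were searched on both strands within 100 bp of each summit. Likeness between genes left out genes whose windows overlap. The text names the 6 genes, the genes owning or nearest to their peaks, 2 lists of partners and the markers. The 6 genes and all lists were chosen with earlier results of these data known. No test was made, since each population has 1 library. Alternatives were a minimum −log10 q of 5 or of 10, lists cut to equal length, other windows, summits, stricter overlap, merging within 250 bp and ranks of −log10 p. Tools were SciPy 1.17.1, pandas 2.3.3, numpy 2.4.6 and matplotlib 3.10.9 under Python 3.11.15.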

Additional observations from a re-analysis of the deposited data

How the results depend on the processing

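The alternatives gave 159 values, of which 44 moved by more than counting error or a factor of 1.5. With a −log10 q of at least 5, 7 remained in Ttk-depleted ECs and 18 in ECs, with 5 regions in all 5 lists and 7 in a single list. With at least 10, 2 remained in Ttk-depleted ECs (at 2 of the genes) and 14 in ECs, with 23 merged regions, 2 in all 5 lists and 7 in a single list. With equal numbers of peaks, 6 were left in Pros-depleted EEs, 8 in EEs, 11 in ECs and 9 in progenitor cells, with 17 merged regions, of which 6 were in all 3 normal populations, 5 in all 5 lists and 5 in a single list, and dpn kept 2 peaks in Ttk-depleted ECs and 0 in ECs and progenitor cells. With the gene body alone, 12 were left in Pros-depleted EEs, 11 in EEs, 9 in Ttk-depleted ECs and 16 in progenitor cells, with 23 merged regions, 5 in all 5 lists and 8 in a single list. With 10 kb to each side, Pros-depleted EEs had 29 peaks, and dpn had 2 in them and 2 in EEs, of which the pnut peak is 1 in each. When 50% of both peaks had to overlap, sharing came to 6.25% for Ttk-depleted ECs and 3.57% for ECs. This setting depends on width, and a typical peak spanned 129 bp in Ttk-depleted ECs against 476 bp in ECs. By the summit alone, dpn had no peak in EEs. The cause of the changes was not tested.

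No paired analysis was possible because each population has 1 library. Depth limits what a missing peak means, most of all in Ttk-depleted ECs, where the median summit had 8 fragments.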

Other observations

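Upstream of insc, 2074 to 2313 bp beyond the edge of its window, a peak stood at the percentile 18.4 in Pros-depleted EEs, 27.9 in Ttk-depleted ECs, 95.2 in ECs and 85.2 in progenitor cells. The nearest peak of EEs on that side lay 4700 bp beyond the edge, at the percentile 11.5. This region lay outside the rule and was noticed after its values were seen.

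Over the 105 peaks at the 6 genes, the Grh motif AACCGGTT and the Ttk motif AGGATAA were in none of the summit windows. They were rare in all lists, in 0.398% to 0.484% and 0.505% to 0.896% of all summit windows. CAGCTG was in 7 of 28 windows in ECs, against 14.9% over the list, and in 1 of 19 in Pros-depleted EEs, against 12.9%. GATAAG was in 5 of 5 windows at the shared TSS of insc and in 4 of 5 at the region in Dhit. Over the lists, 15.2% to 23.5% of all summit windows held it. The summits of a region lie close together, so these windows share most of their bases.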
